A study of Mus musculus with 2 samples.

Results

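The transcripts of 10 genes of the NF-kB pathway were followed in single cells from the healing calvarial defect of mice given gambogic amide (GA) or vehicle. They were the subunits Nfkb1, Nfkb2, Rela and Relb, the inhibitors and feedback regulators Nfkbia, Nfkbiz, Nfkbie, Tnfaip3 and Birc3, and the cytokine gene Tnf. The genes were taken by symbol and make up 10 of the 32285 genes in the count matrices. All 10 were detected in both libraries. GA is a small molecule agonist of TrkA, the receptor for nerve growth factor. Both libraries came from male mice of 2 months, labelled C57BL/6 and given in the paper as C57BL/6J, with a defect in the frontal bone, harvested at 7 days. One group received GA, labelled as 1.2 mg/kg in 100 µL of 10% DMSO, by intraperitoneal injection from 24 h before injury and then daily for 1 week, and the other received the same volume of 10% DMSO alone. The paper describes a higher dose and a longer course for its GA experiments. Cells of 5 mice were pooled into each library, so each condition had 1 library, differences between mice cannot be seen, and no test between conditions was made. The intervals given are exact 95% intervals for counting error only.

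NF-kB is a family of transcription factors that bind DNA as pairs of subunits. In resting cells inhibitors of the IkB family hold most of these pairs in the cytoplasm, and signals from cytokine and pattern recognition receptors lead to the breakdown of the inhibitors and release of the pairs. Many of the genes that NF-kB then switches on, such as Nfkbia and Tnfaip3, encode proteins that end the response. In injured bone the pathway is known for its part in the inflammatory response of neutrophils and macrophages and in the formation of osteoclasts.

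Cells were clustered and named from fixed marker lists, and the names below mean cells that resemble that type. After filters and removal of likely doublets, the GA library kept 8380 cells and 160570724 unique molecular identifiers (UMIs), and the control library 7553 cells and 183666732 UMIs. The median cell had 10968.5 UMIs in GA and 16299 in control. Before any filter, 23 barcodes occurred in both libraries. Neutrophils made up 52.6% of GA cells and 27.6% of control cells, macrophages and monocytes 14.0% and 24.7%, and mesenchymal cells 9.44% and 21.9%. A level below, in CPM, is the sum of a gene's UMIs over all cells of a class in 1 library, as a share of all UMIs of that class on the usual CPM scale. S100a8 and S100a9, which mark neutrophils, summed to 1517 CPM in GA mesenchymal cells and 160.4 CPM in control mesenchymal cells, and were higher in GA in every other compared class but the progenitors. A GA over control ratio was taken in the 10 classes with at least 50 cells in each library, for genes with at least 50 UMIs there, and was called higher or lower at 1.5-fold, or 0.58 on the log2 scale.

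The promoters of 7 of the 10 genes were in the RefSeq table used (build GRCm38.p6), and 4 of these genes held the 10-base NF-kB consensus between 250 bases before and 50 after a transcription start, on either strand. These genes had 10 promoters in all, of which 6 held it, against 8.46% of all 32851 promoters of this length. Each of the 3 Nfkb2 promoters held a match, so 1 gene gave 3 of these 6. The windows of 2 of them overlapped, and the only match of the last is also counted in the one before it. The 6 are thus not separate cases. Of the Nfkb2 promoters only that of the first start is shown. The 150 bases before the first start are shown for these 4 genes, 5′ to 3′ on the strand of the gene, since 3 of them encode inhibitors of the pathway and 1 a subunit. Capitals mark the matches. They are those of Nfkb2 on the plus strand (chr19:46304587-46304736), Nfkbia on the minus strand (chr12:55492648-55492797), Nfkbie on the plus strand (chr17:45555550-45555699) and Tnfaip3 on the minus strand (chr10:19015411-19015560).
Nfkb2 promoter: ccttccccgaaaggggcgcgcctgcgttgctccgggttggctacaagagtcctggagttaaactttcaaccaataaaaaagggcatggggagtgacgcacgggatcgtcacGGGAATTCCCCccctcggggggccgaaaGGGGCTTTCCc
Nfkbia promoter: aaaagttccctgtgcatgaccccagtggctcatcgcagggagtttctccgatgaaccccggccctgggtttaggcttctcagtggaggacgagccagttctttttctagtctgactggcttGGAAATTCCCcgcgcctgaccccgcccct
Nfkbie promoter: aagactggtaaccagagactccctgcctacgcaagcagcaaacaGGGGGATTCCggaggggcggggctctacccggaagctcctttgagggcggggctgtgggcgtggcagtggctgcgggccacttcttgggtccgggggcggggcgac
Tnfaip3 promoter: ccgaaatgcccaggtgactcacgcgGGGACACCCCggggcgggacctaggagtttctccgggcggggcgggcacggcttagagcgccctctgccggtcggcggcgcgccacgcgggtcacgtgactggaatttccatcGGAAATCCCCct
In the Nfkb2 promoter 2 of the 3 matches overlapped, which gives the run of 11 capitals, and Tnfaip3 held 2 separate matches. The windows of Nfkbia and Nfkbie lie just outside the spans of these genes in the GENCODE vM21 annotation, and those of Nfkb2 and Tnfaip3 lie inside them, upstream of the RefSeq start. The Rela, Tnf and Birc3 windows held no match, and Nfkb1, Relb and Nfkbiz were not in the table. A match is a description of the letters only.

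The subunits differed in where they were expressed. Nfkb1, which encodes the precursor of p50, stood at 1015 CPM in GA and 963 CPM in control mesenchymal cells, at 624 and 706 CPM in macrophages and monocytes, and at 276 and 362 CPM in neutrophils. Dendritic cells had 936 and 1105 CPM and basophils and mast cells 1146 and 1155 CPM. The intervals of the last overlapped those of dendritic cells in at least 1 library but lay above those of mesenchymal cells in both. Nfkb1 was lowest in osteoblasts, at 57.1 CPM in GA and 79.1 CPM in control. Relb, a subunit of the alternative pathway, was highest in dendritic cells, apart from every other class. It stood at 441 CPM in GA and 312 CPM in control dendritic cells, from 48 and 158 cells, and the next class was erythroid cells in GA (109 CPM) and basophils and mast cells in control (93.3 CPM). Nfkb2, the precursor of p52 and the usual partner of Relb, was also highest in dendritic cells (149.8 and 124 CPM), and basophils and mast cells (127 and 68.6 CPM) were separated from them in control only. Rela, the subunit p65, had the narrowest range of the 4 subunits. It ran in GA from 24.4 CPM in osteoclasts to 66.9 CPM in endothelial cells, and in control from 26.0 CPM in erythroid cells to 61.8 CPM in endothelial cells. No neighbours in the order of its 14 classes were separated in both libraries.

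The genes Nfkbia, Nfkbie and Nfkbiz, which encode IkB proteins, had peaks of their own. Nfkbia encodes IkB alpha, the main inhibitor, and stood at 2142 CPM in GA and 2823 CPM in control basophils and mast cells, above every other class in both libraries. These cells were few, 32 in GA and 34 in control. Macrophages and monocytes had 881 and 1096 CPM and endothelial cells 773 and 1169 CPM, so that the next class differed between the libraries. The lowest level was in osteoblasts in GA (116.5 CPM) and in plasmacytoid dendritic cells in control (103 CPM). Nfkbie, which encodes IkB epsilon, was highest in dendritic cells (122 and 162 CPM) and osteoclasts (106 and 106 CPM), and these were separated by their intervals in control only. In osteoblasts it was near 0, with 2 UMIs in GA and 12 in control. Nfkbiz, which encodes the nuclear protein IkB zeta, was highest in basophils and mast cells (786 and 1322 CPM) and lowest in osteoclasts. It stood in osteoclasts at 25.1 CPM in GA and 15.5 CPM in control, against 374 and 413 CPM in neutrophils and 358 and 412 CPM in macrophages and monocytes.

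Tnfaip3, which encodes the ubiquitin-editing enzyme A20 that shuts off signalling, was also highest in basophils and mast cells, at 955 CPM in GA and 941 CPM in control. Macrophages and monocytes (285 and 348 CPM) and T and NK cells (288 and 300.4 CPM) came next and were separated in control only. Tnf, the cytokine that is both a target and an activator of the pathway, stood at 165 CPM in GA and 226 CPM in control macrophages and monocytes. It was at 1.14 and 1.07 CPM in mesenchymal cells and rested on 2 UMIs in GA and 1 UMI in control osteoblasts. In basophils and mast cells the libraries were far apart for Tnf, with 10 UMIs (27.7 CPM) in GA and 97 UMIs (266 CPM) in control. Birc3, which encodes the ubiquitin ligase cIAP2, was spread over the immune classes, with 266 and 247 CPM in dendritic cells and 166 and 196 CPM in neutrophils, and was lowest in erythroid cells (23.7 and 25.4 CPM). The heat map of levels shows these patterns row by row.

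**Figure D1:**
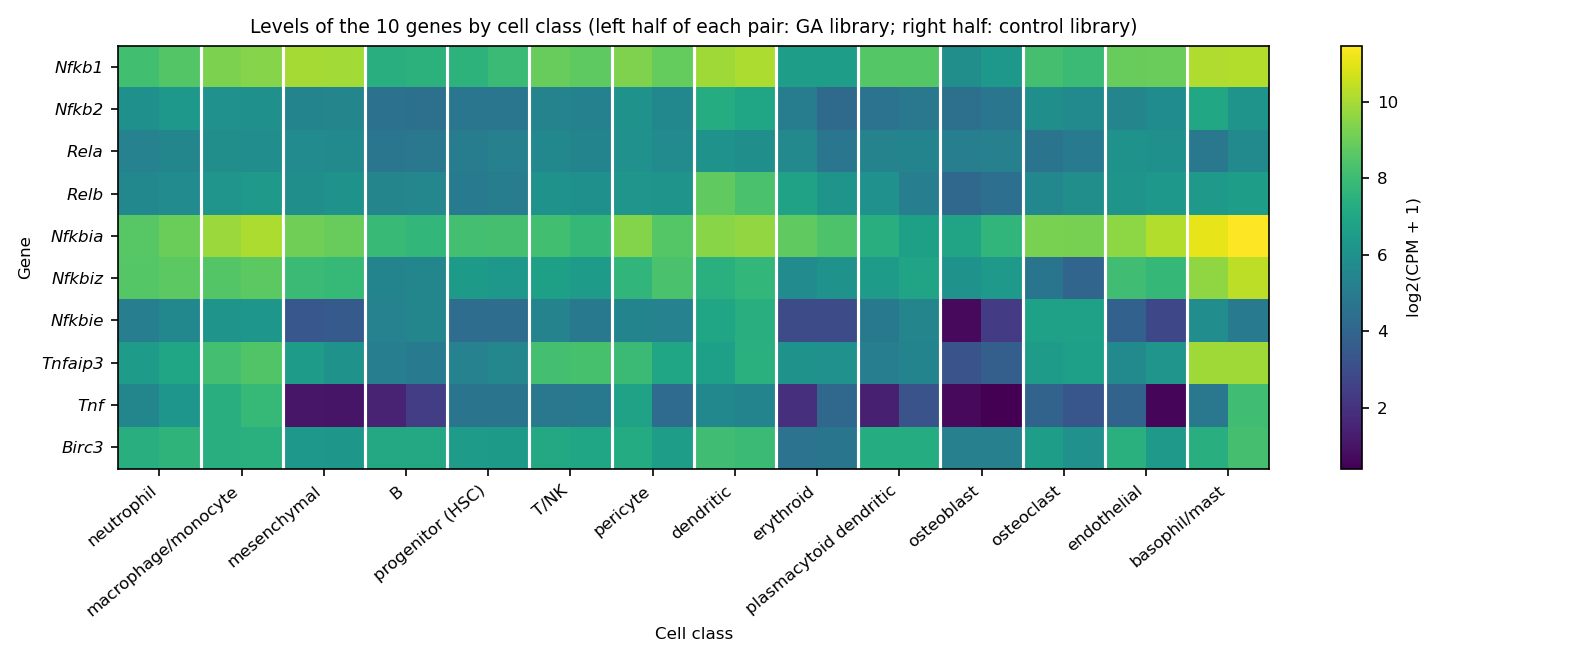
Level of each of the 10 genes in 14 cell classes as log2(CPM + 1), with the GA library on the left and the control library on the right of each pair of columns. Relb is brightest in dendritic cells, GA Tnf in macrophages and monocytes (165 CPM), control Tnf in basophils and mast cells (266 CPM), Nfkbia and Tnfaip3 in basophils and mast cells, and colours should be compared along a row.

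In neutrophils all 10 genes were lower in GA than in control, as were 73.6% of all genes tested there. Tnf stood at 44.3 CPM in GA and 73.5 CPM in control, from 1891 and 1148 UMIs, a log2 ratio of -0.73 (-0.84 to -0.62), and was the only 1 past 1.5-fold. Over all 10890 genes tested in neutrophils, 9.72% were lower and 1.75% higher by 1.5-fold or more, so 1 of 10 is near the background. When each cell was named by its own markers and not by its cluster, the Tnf ratio was -0.07. Of the inhibitor genes, Nfkbie stood at 34.1 CPM in GA and 47.2 CPM in control (log2 ratio -0.47), Tnfaip3 at 89.1 and 118 CPM (-0.40) and Nfkbia at 390.5 and 502 CPM (-0.36, interval -0.40 to -0.32). Among the subunits, Nfkb1 stood at 276 and 362 CPM (-0.39) and Nfkb2 at 60.6 and 79.1 CPM (-0.39). Rela with 38.4 and 43.4 CPM and Relb with 46.6 and 52.7 CPM both had a log2 ratio of -0.18. The least difference was that of Nfkbiz, at 374 and 413 CPM (-0.14), which turned to 0.05 when cells were named by their own markers. Birc3 stood at 166 and 196 CPM (-0.24).

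All 10 intervals lay below 0, as did those of 37.2% of all genes tested in neutrophils. These shares are not alike in depth and cannot show an excess. Each of the 10 genes had at least 1456 UMIs in GA and 678 in control. The background takes in genes from 50 UMIs, whose counting intervals are wider. The median log2 ratio of the 10 genes was -0.37 and that of all genes -0.15. S100a8 and S100a9 summed to 274110 CPM in GA and 243180 CPM in control neutrophils. The 16 genes of a list of responses to tissue dissociation, immediate early genes such as Egr1 and Dusp1 among them, summed to 5244 CPM in GA and 5715 CPM in control neutrophils, with 15 of 16 below 0 and 6 lower past 1.5-fold. The part of that list was not tested. With totals taken without S100a8 and S100a9 the ratios of Nfkbia and Nfkbiz were -0.30 and -0.08. The plot of ratios shows the neutrophil values to the left of 0 and, except for Nfkbiz, to the left of the median of all genes.

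**Figure D2:**
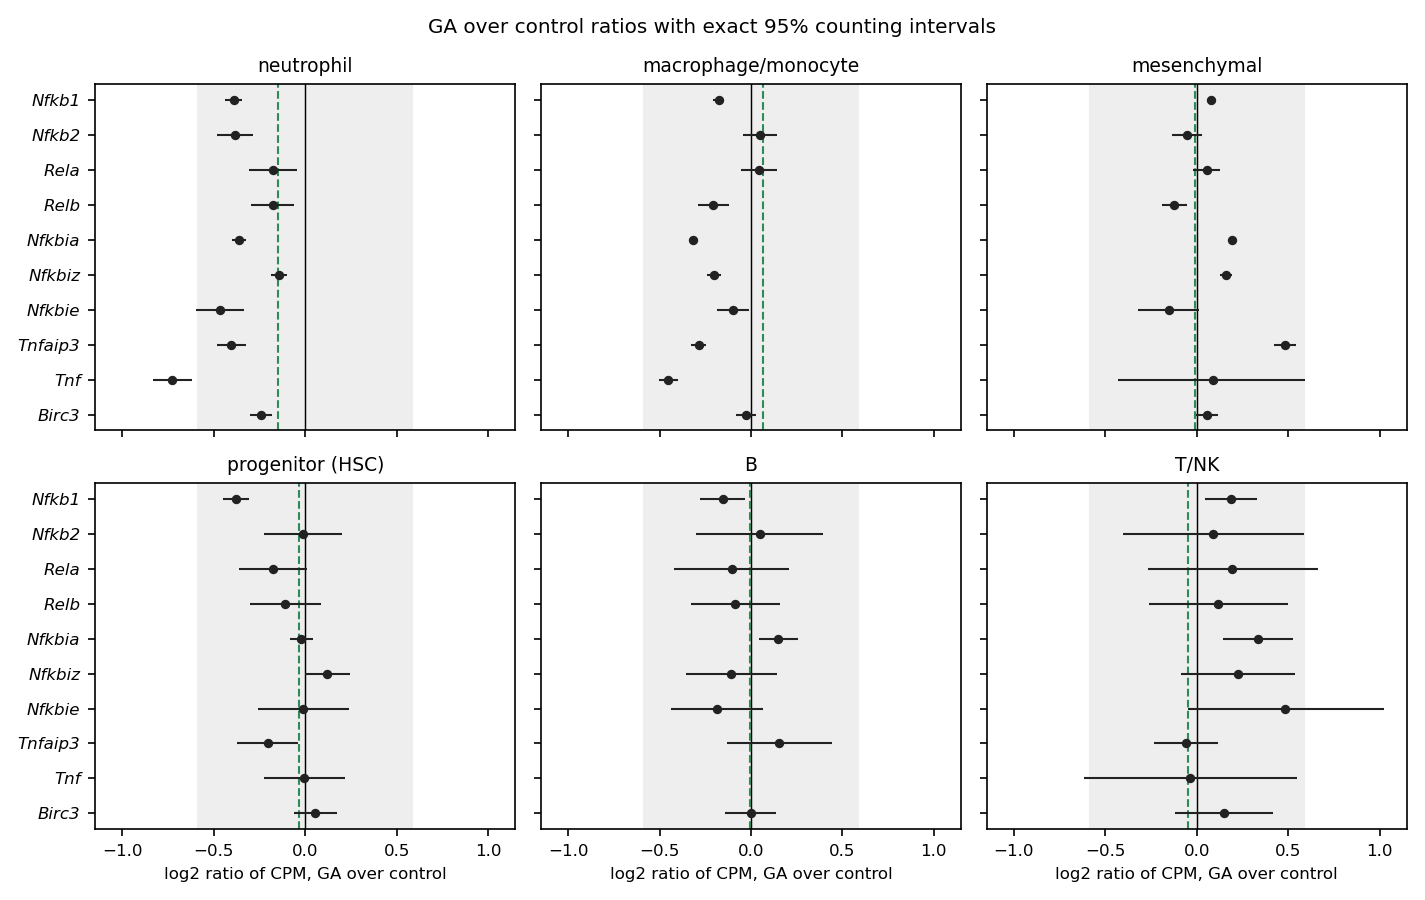
Log2 ratio of CPM, GA over control, for the genes with at least 50 UMIs in 6 classes, with points for the ratio, bars for exact 95% counting intervals, a dashed green line at the median of all genes of the class and grey where a ratio is within 1.5-fold. In neutrophils all 10 points lie below 0 and Tnf (-0.73) lies furthest left, in macrophages and monocytes 8 lie below 0, and in mesenchymal cells 7 lie above 0. Of all genes, 73.6% lay below 0 in neutrophils, 38.4% in macrophages and monocytes and 51.4% in mesenchymal cells.

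In macrophages and monocytes 7 of the 10 genes were lower in GA beyond counting error, while Nfkb2, Rela and Birc3 did not differ beyond it. The class was not made up alike in the libraries. Ly6c2 monocytes were 24.2% of its GA cells and 13.8% of its control cells, and Arg1 macrophages 20.5% and 28.0%. A split of these ratios by subcluster is given below. Tnf stood at 165 CPM in GA and 226 CPM in control (log2 ratio -0.45, interval -0.51 to -0.40), Nfkbia at 881 and 1096 CPM (-0.32, -0.34 to -0.29) and Tnfaip3 at 285 and 348 CPM (-0.29). Nfkbiz (358 and 412 CPM) and Relb (70.7 and 81.6 CPM) had ratios of -0.20 and -0.21, Nfkb1 (624 and 706 CPM) -0.18 and Nfkbie (69.7 and 74.7 CPM) -0.10. These 7 intervals lay below 0, as did those of 15.6% of all genes of the class. That background takes in genes from 50 UMIs, while Nfkbie, the lowest of the 7, had 1704 in GA and 3060 in control. These shares are thus not alike in depth and cannot show an excess. Nfkb2 stood at 63.1 and 61.1 CPM (0.05, -0.04 to 0.14), Rela at 57.1 and 55.4 CPM (0.04, -0.05 to 0.14) and Birc3 at 166 and 169.7 CPM (-0.03, -0.08 to 0.03). None of the 10 reached 1.5-fold, where 6.15% of the 12594 genes tested in the class were higher and 4.27% lower. The median of the 10 was -0.19 and that of all genes 0.07. Of the 10 ratios 8 were below 0, and of all genes 38.4%. S100a8 and S100a9 summed to 1871 CPM in GA and 194 CPM in control macrophages and monocytes, and their part was not tested. The 5% of cells with most Tnf held 43.7% of the Tnf UMIs of GA macrophages and monocytes and 37.5% of those of control.

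Mesenchymal cells gave most of the Nfkb1 UMIs of both libraries, and 7 of their 10 ratios were above 0. Of all genes there, 51.4% were below 0. The class was not made up alike in the libraries. Its cluster led by Mgp and Eln held 47 of 791 GA cells and 354 of 1655 control cells. Tnfaip3 stood at 90.5 CPM in GA and 64.8 CPM in control, a log2 ratio of 0.48 (0.42 to 0.54). Nfkbia (544 and 475 CPM) had a ratio of 0.19, Nfkbiz (247 and 221 CPM) 0.16 and Nfkb1 (1015 and 963 CPM) 0.08. The intervals of these 4 lay above 0 and that of Relb (59.0 and 64.2 CPM, ratio -0.12) below it. Over all mesenchymal genes 25.1% of intervals lay above 0 and 27.9% below. These shares take in genes from 50 UMIs, whose intervals are wider than those of Tnfaip3, Nfkbia, Nfkbiz, Nfkb1 and Relb. The others, Nfkb2, Rela, Nfkbie, Tnf and Birc3, had intervals that held 0, from -0.15 for Nfkbie to 0.09 for Tnf. No gene of the 10 reached 1.5-fold, where 6.60% of genes were higher and 8.20% lower. S100a8 and S100a9 differed in the same class, as given above, and so did the dissociation genes, which summed to 8184 CPM in GA and 6750 CPM in control, with 6 higher and 2 lower. The part of both, and of the cluster led by Mgp and Eln, in these ratios was not tested.

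Lymphocytes and progenitors showed little. In B cells 9 of the 10 genes had enough UMIs, none reached 1.5-fold against a background of 2.23% higher and 2.22% lower, and Nfkb1 (164 and 183 CPM, -0.16) and Nfkbia (234 and 211 CPM, 0.15) had intervals without 0. The other 7 B cell ratios, from -0.18 for Nfkbie to 0.16 for Tnfaip3, had intervals with 0, and Tnf had too few UMIs. In progenitor cells, which carried markers of blood stem cells and early myeloid cells, none of the 10 was past 1.5-fold (background 2.46% higher and 7.76% lower). Nfkb1 stood there at 189 CPM in GA and 246 CPM in control (-0.38, -0.45 to -0.31) and Tnfaip3 at 38.6 and 44.6 CPM (-0.21, -0.37 to -0.04). The other 8 progenitor ratios, from -0.18 for Rela to 0.12 for Nfkbiz, had intervals with 0. In T and NK cells none was past 1.5-fold (2.79% higher and 5.74% lower), and 8 of 10 were above 0, of which Nfkbia (277 and 219.7 CPM, 0.34) and Nfkb1 (476 and 418 CPM, 0.19) had intervals without 0. Of all genes there, 57.2% were below 0 and 6.16% had intervals above 0. The latter share takes in genes from 50 UMIs, whose intervals are wider than those of Nfkbia and Nfkb1. The other 8 ratios ran from -0.06 for Tnfaip3 to 0.48 for Nfkbie, and the median of the 10, 0.17, turned to -0.07 with cells named by their own markers. S100a8 and S100a9 summed to 1621 CPM in GA and 150.2 CPM in control T and NK cells, and their part in these values was not tested.

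Past 1.5-fold there were genes in 4 small classes. In pericytes Tnf stood at 110.05 CPM in GA and 18.6 CPM in control, resting on 104 and 29 UMIs, a log2 ratio of 2.56 (1.96 to 3.21). In GA 8 cells held 76.9% of these UMIs, and the highest single cell had 30. Over the 8 alternatives that gave this ratio it ran from 0.85 to 2.72. Tnfaip3 (243 and 121 CPM) had a ratio of 1.00, Nfkbia (677 and 370.5 CPM) 0.87 and Birc3 (148 and 93.1 CPM) 0.67, while Nfkbiz was lower (206 and 310.1 CPM, -0.59). Nfkb1 (639 and 458 CPM) had a ratio of 0.48, Nfkb2 0.51, Rela 0.25, Nfkbie 0.10 and Relb 0.05. The class as a whole was uneven between libraries, since 18.7% of its genes were higher and 18.7% lower, and its 145 GA cells had a median depth of 2253 UMIs, its 160 control cells 5331.5. The cells under this name were not alike in the libraries. The 7 pericyte markers summed to 1365 CPM in GA and 6072 CPM in control, erythroid markers to 3661 and 484 CPM and osteoblast markers to 669.8 and 238 CPM. All 11 macrophage and monocyte markers were above 0 in both libraries there and summed to 6587 CPM in GA and 3332 CPM in control. The part of these differences in the pericyte ratios was not tested. The Tnfaip3 ratio turned to -0.50 at Leiden resolution 2.

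In osteoblasts, the cells that lay down bone, Nfkbia stood at 116.5 CPM in GA and 207 CPM in control, from 363 and 614 UMIs, a log2 ratio of -0.83 (-1.02 to -0.64). It was the 1 of 8 genes tested past 1.5-fold, where 12.7% of all genes were lower and 4.54% higher. A count of 1 of 8 is near the background. Nfkb1 (57.1 and 79.1 CPM, -0.47) and Nfkbiz (66.4 and 82.5 CPM, -0.31) also had intervals below 0, and 7 of 8 ratios were below 0 with a median of -0.33, against -0.11 for all genes, of which 63.8% were below 0. The others were Tnfaip3 (-0.58), Relb (-0.35), Nfkb2 (-0.27), Rela (-0.11) and Birc3 (0.01). The median turned to 0.13 with thinned cells. Thinning kept 2000 UMIs of each of at most 76 GA and 69 control osteoblasts. The thinned counts were not held to the minimum of 50 UMIs, so those of the lower genes are small. S100a8 and S100a9 summed to 2684 CPM in GA and 643 CPM in control osteoblasts, and their part was not tested. In plasmacytoid dendritic cells Relb (63.7 and 34.8 CPM, 0.87) and Nfkbia (159.7 and 103 CPM, 0.63) were higher, 2 of 9 tested against 12.8% of all genes, with 5.91% lower. The other 7 ratios, from -0.54 for Nfkbie to 0.02 for Birc3, had intervals with 0. The dissociation list moved with them, with 8 of its 13 tested genes higher and sums of 3250 CPM in GA and 2270 CPM in control, as did S100a8 and S100a9 (2345 and 131 CPM), and the part of both was not tested. In erythroid cells Nfkb2 (33.2 and 17.7 CPM, 0.91), Rela (48.7 and 26.0 CPM, 0.91) and Relb (109 and 69.1 CPM, 0.66) were higher, 3 of 8 tested against 6.44% of all genes, with 10.1% lower. Nfkbia (439 and 332 CPM) had a ratio of 0.40, and Nfkb1 (-0.02), Nfkbiz (-0.38), Tnfaip3 (0.09) and Birc3 (-0.10) had intervals with 0. These 3 ratios rested on 49 to 161 UMIs in GA and 32 to 125 UMIs in control, and Nfkb2 turned to -1.42 with thinned cells and Relb to -0.38 as the mean of the cells' CPM. The thinned value came from at most 68 GA and 104 control cells and rests on fewer UMIs still. S100a8 and S100a9 summed to 3146 CPM in GA and 1694 CPM in control erythroid cells, mesenchymal markers to 155 and 4729 CPM and macrophage and monocyte markers to 52.8 and 414 CPM, and the part of these was not tested.

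Over all cells, 9 of the 10 genes were lower in GA, and so were 58.5% of all 18381 genes. If GA had kept the control level of each class and only its own shares of UMIs, the log2 ratio of Nfkb1 would have been -0.43, of the -0.52 seen (515 CPM in GA and 738 CPM in control). Mesenchymal cells held 66.3% of the Nfkb1 UMIs of the control library and 53.8% of those of GA. Tnf was the reverse case. It stood at 43.6 CPM in GA and 60.8 CPM in control over all cells (-0.48), and the shares alone gave -0.00, so that the within-class part was -0.48. Macrophages and monocytes held 83.1% of control Tnf UMIs and 57.8% of GA Tnf UMIs, and neutrophils 10.3% and 27.0%. For Nfkbia the all-cell ratio of -0.33 was made up of -0.19 from shares and -0.13 from within classes. Birc3 was the 1 gene above 0 over all cells (0.12), with 0.19 from shares and -0.07 within classes. The within-class part was below 0 for all 10 genes, with a median of -0.12. This part was not taken over all genes. Of all genes, 73.6% lay below 0 in neutrophils, 38.4% in macrophages and monocytes and 51.4% in mesenchymal cells.

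**Figure D3:**
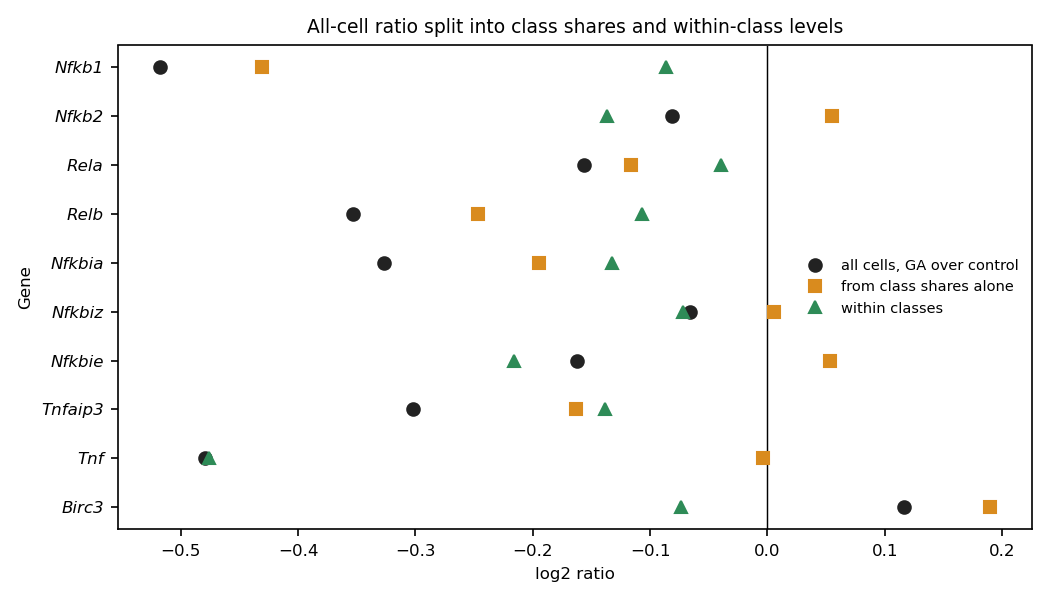
All-cell log2 ratio of GA over control (black circles), the ratio that the shares of the classes alone would give (orange squares) and the remainder within classes (green triangles) for each of the 10 genes. For Nfkb1 the square (-0.43) lies near the circle (-0.52), and for Tnf the triangle does (-0.48).

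Within neutrophils the levels ranged widely between stages. Dividing precursors had 218 CPM of Nfkbia in GA and 233.5 CPM in control, immature cells, marked by granule genes such as Camp and Ltf, 149.7 and 186 CPM, and mature cells 388 and 366 CPM. A subcluster led by Cxcl3 and Cxcl2, chemokine genes that attract neutrophils, reached 1772 and 2094 CPM, with 591 GA and 344 control cells. The same subcluster, which had no name by the marker rule, had the highest Nfkb1 (1076 and 1202 CPM) and Nfkbie (181 and 238 CPM) of the groups plotted. Tnf was highest elsewhere in control cells, in a subcluster led by Clec4n, Egr3 and Egr1, at 429 CPM, where GA cells had 121 CPM. In GA cells Tnf was highest in the interferon subcluster of 33 cells, at 269 CPM, against 282 CPM in 28 control cells. Tnf was at 31.1 and 31.4 CPM in immature cells and 36.4 and 32.8 CPM in mature cells, with overlapping intervals in both stages, which together held most neutrophils. Mature cells as a whole were also alike in Nfkb1 (224 and 226 CPM), Nfkbiz (535 and 539 CPM) and Tnfaip3 (115 and 114 CPM), whose intervals overlapped. Immature cells were not, with Nfkb1 at 252 CPM in GA and 369 CPM in control.

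**Figure D4:**
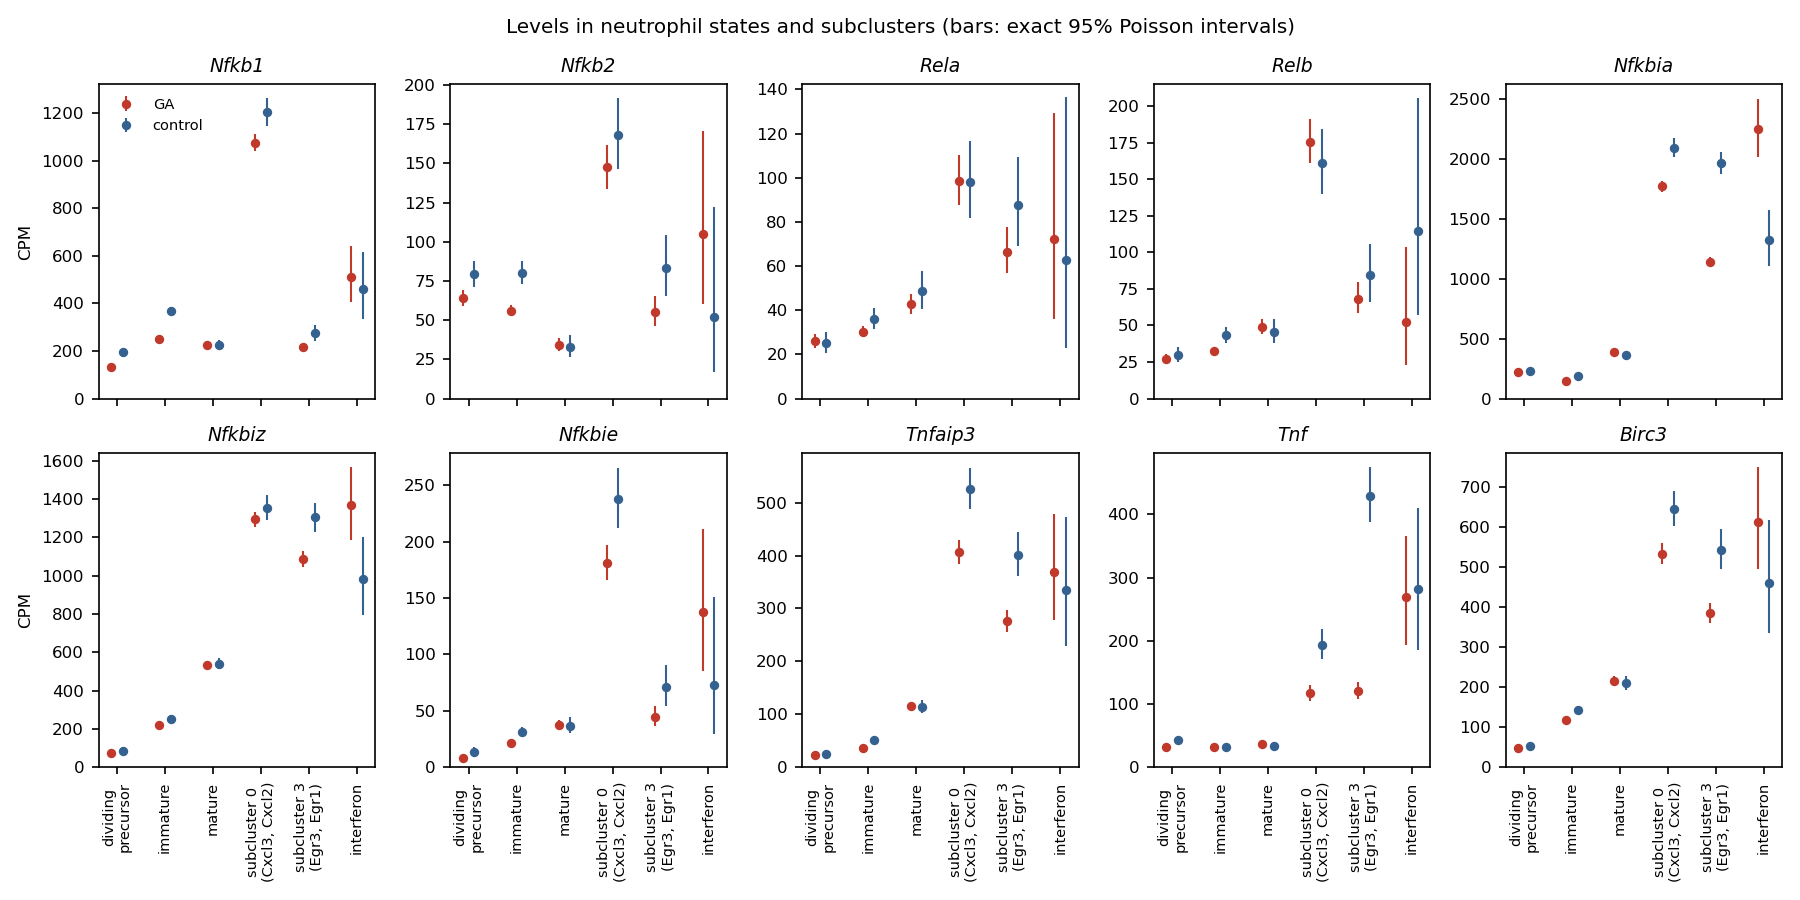
Level of each of the 10 genes in CPM in neutrophil stages and in the subclusters led by Cxcl3 and by Egr3, in GA (red) and control (blue), with exact 95% Poisson intervals. Tnf in the Egr3 subcluster differs most (121 CPM in GA and 429 CPM in control), and the mature stage has overlapping intervals for Nfkb1, Nfkbiz and Tnfaip3.

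Of 22 subclusters with at least 50 cells in each library, the 4 with 3 or more genes past 1.5-fold are described, a choice made after their values were seen. Tnf in the Egr3 subcluster had the largest log2 ratio of these 22. Its 482 GA cells held 294 UMIs and its 236 control cells 382, a log2 ratio of -1.83 (-2.05 to -1.61). Nfkbia (1142 and 1968 CPM, -0.79) and Nfkbie (44.8 and 70.8 CPM, -0.66) were also past 1.5-fold, 3 of 10 against 20.5% of all genes of the subcluster. A subcluster of immature cells led by Ltf and Cacna1d had Nfkb1 at 402.5 CPM in GA and 637 CPM in control (-0.66). Nfkb2 stood there at 62.7 and 98.6 CPM (-0.65) and Tnfaip3 at 70.8 and 115 CPM (-0.70), 3 of 10 against 6.02%. In the other immature subclusters led by Ltf the Nfkb1 ratios were -0.15 and -0.23, with intervals that held 0. A mature subcluster led by Cstdc4 and Stfa2l1 went the other way. Its Nfkbie stood at 37.9 CPM in GA and 17.8 CPM in control (1.09), Relb at 66.0 and 37.5 CPM (0.82), Nfkb2 at 42.8 and 25.7 CPM (0.74) and Birc3 at 202 and 132 CPM (0.61), 4 of 10 higher against 6.32%. Of these 4, the Nfkb2 interval held 0, and the counts in control were 9 to 67 UMIs. Split by subcluster, the neutrophil ratio of Tnf of -0.73 had -0.05 from the shares of subclusters and -0.68 from within them, and that of Nfkb1 of -0.39 had -0.34 from within.

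Among macrophages and monocytes, the subcluster with the lowest median ratio was led by Hmox1, Slc40a1 and Arg1, genes of heme and iron handling and of arginine use, and held 62 GA and 154 control cells. Nfkbia stood there at 553 CPM in GA and 1132 CPM in control (-1.03, -1.13 to -0.94), Tnf at 100.7 and 216 CPM (-1.10), and Nfkb1 at 264 and 477 CPM (-0.85). Nfkb2 (-0.95), Nfkbie (-0.75) and Birc3 (-0.74) were lower as well, so that 6 of 10 were past 1.5-fold against 7.15% of all genes there. The median of the 10 was -0.74 and that of all genes of the subcluster 0.04. In the other Arg1 subclusters the medians were -0.29 and -0.14, and in the Ly6c2 monocyte subclusters -0.01 and 0.26. For Tnf in macrophages and monocytes, -0.16 of the ratio of -0.45 came with the shares of subclusters and -0.29 from within them. The shares were the larger part for Nfkb1 (-0.11 from shares and -0.07 from within) and Tnfaip3 (-0.16 and -0.12). The part from within was the larger for Nfkbia (-0.12 from shares and -0.19 from within), Nfkbiz (-0.03 and -0.17), Relb (-0.06 and -0.14) and Nfkbie (0.02 and -0.12). The map of subcluster ratios shows these rows.

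**Figure D5:**
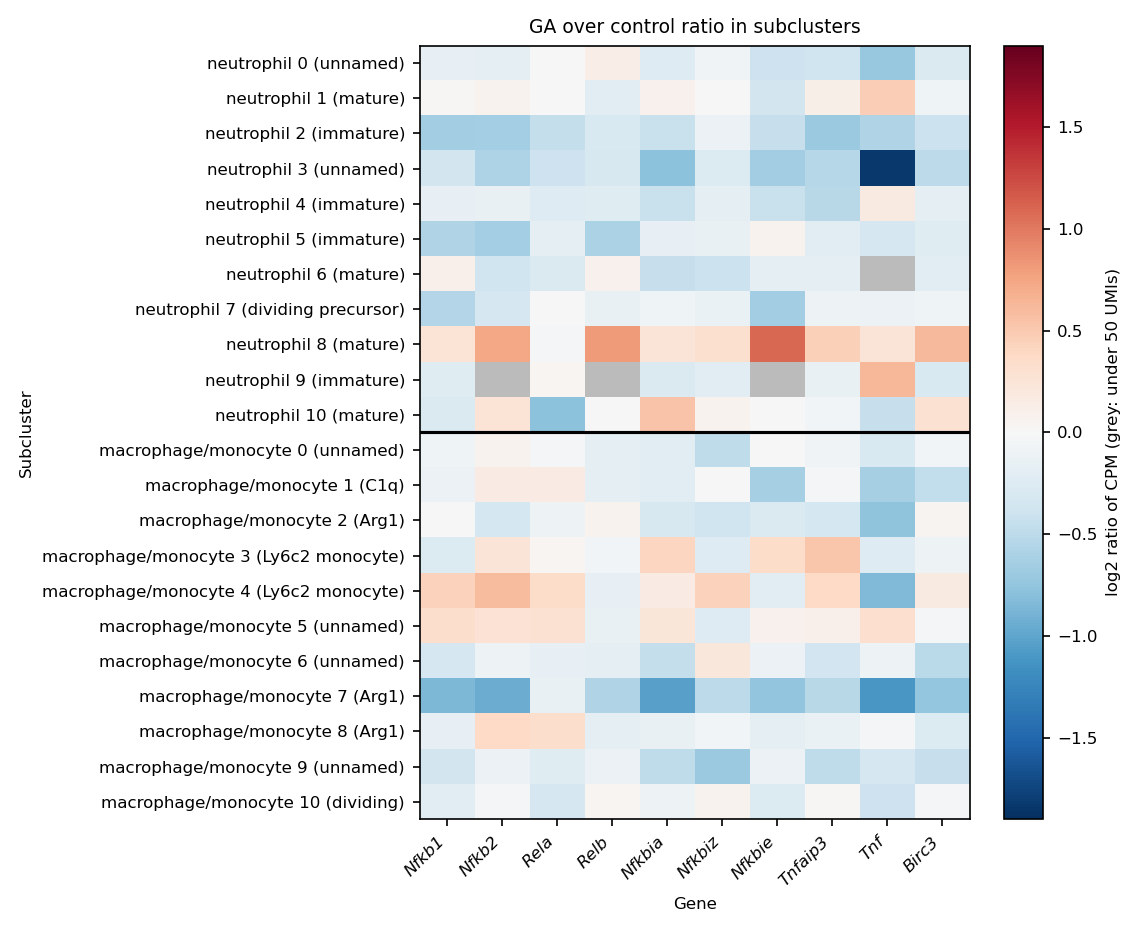
Log2 ratio of CPM, GA over control, for each of the 10 genes in 11 neutrophil and 11 macrophage or monocyte subclusters with at least 50 cells in each library, blue where lower in GA, red where higher and grey under 50 UMIs. The bluest cell is Tnf in neutrophil subcluster 3 (-1.83), the row of macrophage subcluster 7 is blue for all 10 genes, and neutrophil subcluster 8 is mostly red.

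The share of neutrophils with a UMI of a gene was taken from the same UMIs as the ratios. After thinning each cell to 2000 UMIs, Tnf was seen in 7.97% of GA neutrophils (7.19 to 8.82, 349 of 4377 cells) and 10.3% of control neutrophils (9.03 to 11.7, 212 of 2057 cells). Before thinning the shares were 23.6% and 21.4%, at median depths of 7056 and 5091 UMIs. In thinned mesenchymal cells, which should lack Tnf, they were 0.38% and 0.24%, at median depths of 51914 and 51447 UMIs. Thinned shares were lower in GA neutrophils for all 10 genes, for example 37.7% and 42.5% for Nfkbia and 16.2% and 19.7% for Tnfaip3. The intervals of Nfkb1, Rela, Relb, Nfkbiz and Birc3 overlapped. Thinned shares were not taken over all genes, of which 73.6% had a CPM ratio below 0 in neutrophils. Thinning left out 28 GA and 26 control neutrophils. The 5% of neutrophils with most Tnf held 47.0% of its UMIs in GA and 61.8% in control, where the highest single cell had 17 and 42 UMIs. For the other 9 genes this share differed by less between libraries, with 32.1% and 31.9% for Nfkbia.

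Other genes of the pathway were read from 4 lists. In neutrophils none of the 13 other Rel, IkB and kinase genes tested and none of the 15 receptors, ligands and adaptors were past 1.5-fold, with medians of -0.17 and -0.14, close to the -0.15 of all genes. The other negative regulators had a median of -0.18, with 10 of 10 below 0, against 73.6% of all genes, and none past 1.5-fold. Of 23 NF-kB target genes, 7 were lower and 1 higher, against 9.72% lower and 1.75% higher over all genes, with a median of -0.38. Csf1, a growth factor for macrophages, stood at 32.2 CPM in GA and 78.7 CPM in control neutrophils (-1.29), Icam1, an adhesion molecule, at 17.1 and 34.2 CPM and Cd83 at 1.92 and 3.65 CPM (-0.92). The acute phase gene Saa3 was higher (3.96 and 1.79 CPM, 1.14), and the survival gene Bcl2l1 stood at 127 and 88.2 CPM (0.52).

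In macrophages and monocytes 3 of 24 target genes were lower and none higher, with a median of -0.07. Over all genes of the class 4.27% were lower and 6.15% higher. The 3 lower target genes were Cxcl1, a chemokine for neutrophils (262 and 454 CPM, -0.79), Il1a (62.7 and 97.6 CPM, -0.64) and Ptgs2, the inducible cyclooxygenase (301 and 468 CPM, -0.64). Il6 and Saa3 had ratios of 0.54 and 0.56. The adaptor Myd88 (57.3 and 37.6 CPM, 0.61) was the 1 gene past 1.5-fold in the other 3 lists. In mesenchymal cells 3 of 24 target genes were higher and 4 lower, against 6.60% higher and 8.20% lower over all genes. The higher ones, Clec4e (5.76 and 1.95 CPM), Il1b (18.7 and 6.86 CPM) and Nod2 (2.14 and 1.06 CPM), are genes of myeloid cells, and S100a8 and S100a9 moved with them, whose part was not tested. Icam1 was lower (31.2 and 50.4 CPM, -0.69). Tnfsf11, which encodes RANKL, the ligand that drives osteoclast formation through NF-kB, stood at 16.6 CPM in GA and 40.2 CPM in control mesenchymal cells (-1.27). Of the 18 receptors, ligands and adaptors tested there, 3 were lower and 1 higher. The mesenchymal cluster led by Mgp and Eln differed in share between the libraries, as given above, and its part in these values was not tested. In pericytes 13 of 21 target genes were higher and none lower, against 18.7% higher over all genes, and the marker differences given above moved with them. In erythroid cells 12 of 14 target genes were lower and none higher, with a median of -2.84, sums of 343 CPM in GA and 1370 CPM in control, and 10.1% lower over all genes. The mesenchymal and macrophage markers given above were lower in the same cells, and their part was not tested.

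Across the 10 compared classes in both libraries, 20 points in all, the levels of some of the genes went together. Pearson's r on log2(CPM + 1) was 0.88 between Nfkb2 and Nfkbiz and 0.87 between Nfkbie and Birc3, and 0.17 between Relb and Birc3. The points of a class in both libraries are not independent, and depth differs between classes, so these are descriptions. Among 15318 genes, the most like Tnf were Efhd2 (0.95), Fem1c (0.94) and Tank (0.94), the most like Birc3 were Fbxo11 (0.97), Ppp1r18 (0.95) and Vps4b (0.95), and the most like Nfkbie were Adgre5 (0.94), Actr2 (0.94) and Rnf115 (0.94). The most like Tnfaip3 were Rab8b (0.91), Tnip1 (0.90) and Zc3hav1 (0.90), and the most like Nfkb1 were Sel1l (0.92), Arhgap1 (0.90) and B4galt5 (0.89). For Nfkbiz they were Tdrd7 (0.92), Oasl2 (0.92) and Zswim4 (0.91), for Nfkbia Gm38560 (0.89), Ehd1 (0.88) and Casp4 (0.87), and for Nfkb2 Tgoln1 (0.90), Eea1 (0.90) and Tdrd7 (0.89). For Relb they were Fam126a (0.84), Rnf213 (0.84) and Ilrun (0.83) and for Rela Slfn5 (0.82), Sgsh (0.80) and Ski (0.80). Of these 30 pairs, 5 to 18 were kept when cells were clustered or named in another way.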

How the data were processed

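Counts of UMIs per gene and barcode were deposited by the authors for each of 2 libraries, as called by Cell Ranger 7.0.1 per the file headers. The paper names a later version and the mouse reference mm10. No normalization was seen in the values. The matrices held 9322 GA barcodes with 182949385 UMIs and 8718 control barcodes with 214993030 UMIs. Gene counts were used as deposited, and symbols came from the same files.

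Barcodes with 500 to 140000 UMIs, 200 to 9500 genes and up to 15% mitochondrial UMIs were kept (9036 GA and 8093 control). Scrublet, as built into scanpy 1.11.5, marked 0 GA and 39 control barcodes, under 0.5%, so it was taken not to have worked, and doublets were removed by score rank instead, at a rate of 0.8% per 1000 barcodes (656 GA and 540 control). Cells were clustered on 2000 variable genes, without the genes of the lists, with Pearson residuals (theta 100), 50 principal components, Harmony over the libraries (written in NumPy 2.4.6; theta 2, lambda 1, sigma 0.1), 15 neighbours and Leiden (leidenalg 0.10.2) at resolution 1 with seed 1. Unnamed clusters of at least 200 cells were clustered once more, giving 43 clusters. A cluster took the class with the highest marker score, or the second, at most 0.5 behind, where the first failed the conditions that follow. At least 3 markers of the class had to be detected in at least 10% of cells, at 2 or more times the median over clusters. No other class could have more markers among its 10 leading genes. A cluster more than 3-fold below a library's median depth also needed a marker of its class among these 10. Thresholds for naming were set after seeing the data. In all, 6 GA and 113 control cells stayed unnamed. Neutrophils and macrophages were clustered again by the same steps. Their subclusters were named against the mean over subclusters, and each name needed a marker among the 10 leading genes.

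UMIs were summed per class and library and divided by the class total (CPM). Levels have exact Poisson intervals, shares exact Clopper-Pearson intervals and ratios exact conditional binomial intervals (scipy 1.17.1), at 95%, for counting error only. With 1 library per condition no p-value was computed. The 10 genes are given in each compared class by value or by the range of their ratios, where they had enough UMIs. From each list of NF-kB genes up to 3 genes with the highest and 3 with the lowest ratio were eligible for naming, and the 3 genes of most similar pattern per gene. The order of classes uses those with at least 20 cells in each library. The steps were tested on simulated counts. The 10 genes, the lists and the tests were chosen with earlier results of these data known. Gene positions come from GENCODE vM21 and promoters from RefSeq.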

Additional observations from a re-analysis of the deposited data

Results flagged for a closer look

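Tnf went in opposite directions in 2 classes. Its log2 ratio was -0.73 in neutrophils and 2.56 in pericytes, both past 1.5-fold. In GA pericytes 8 cells held 76.9% of the Tnf UMIs. Nfkbia was lower in osteoblasts (-0.83) and higher in pericytes (0.87) and in plasmacytoid dendritic cells (0.63). Over the alternatives, Nfkbia ran from -0.90 to -0.15 in osteoblasts, 0.30 to 1.17 in pericytes and 0.09 to 1.26 in plasmacytoid dendritic cells. Tnf ran from -0.94 to -0.07 in neutrophils and from 0.85 to 2.72 in pericytes. With 1 library per condition the differences between classes were not tested. In pericytes the class's own markers stood at 1365 CPM in GA and 6072 CPM in control, macrophage and monocyte markers at 6587 and 3332 CPM and erythroid markers at 3661 and 484 CPM. These and the levels of S100a8 and S100a9 in osteoblasts, at 2684 and 643 CPM, moved with these values, and their part was not tested.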

How the results depend on the processing

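Of 18 alternatives, 1, totals without S100a8 and S100a9, was chosen after seeing the data. In another, background UMIs were subtracted, taking all S100a8 and S100a9 in mesenchymal cells as background. This gave a background of 1.975% of UMIs in GA and 0.734% in control. Both were run as alternatives and not as tests of the part of these genes in a class. The median log2 ratio of the 10 genes stayed below 0 in neutrophils (-0.40 to -0.11) and in macrophages and monocytes (-0.41 to -0.17) and above 0 in mesenchymal cells (0.02 to 0.07) under the 16 alternatives that give ratios. In neutrophils it was -0.23 with no doublet removal, -0.11 with each cell named by its own markers and -0.24 relative to the median gene (over genes with at least 200 UMIs). In macrophages and monocytes it was -0.41 with no doublet removal, -0.31 at a mitochondrial limit of 10%, -0.34 with list genes among the variable genes, -0.31 with own markers and -0.25 relative to the median gene. It was -0.26 in progenitor cells with no doublet removal. In pericytes it was -0.21 at Leiden resolution 2, 0.087 with thinning and 0.089 as the mean of the cells' CPM, and in erythroid cells -0.063 and -0.049 under the last pair. The median changed sign in osteoblasts (-0.56 to 0.13), T and NK cells (-0.07 to 0.22), B cells (-0.17 to 0.01), progenitors (-0.26 to 0.13) and plasmacytoid dendritic cells (-0.08 to 0.37). It also did so in pericytes (-0.21 to 0.50, main value 0.49) and erythroid cells (-0.063 to 0.56, main value 0.24). No ratio could be had for pericytes under 7 alternatives, because too few cells took that name. Past 1.5-fold over the 10 classes were 9 higher and 3 lower pairs of gene and class. Pericytes held 4 of the higher and 1 of the lower pairs. Under the 7 alternatives without a pericyte ratio the counts leave this class out, so they are not over the same classes. The higher pairs were 5 with no doublet removal, at 10% mitochondrial share, without Harmony, at resolutions 0.5 and 2, with list genes, with at least 2000 UMIs and as mean CPM, 1 with own markers and 2 at a 2-fold call. The lower pairs were 7 with no doublet removal, 5 at 10% mitochondrial share, 6 with background subtracted, 13 with thinning, 6 as mean CPM, 7 without the 5 cells with most UMIs of the gene, 0 at a 2-fold call and 5 at a minimum of 20 UMIs. Thinned counts were not held to the minimum of 50 UMIs, and in small classes those of the lower genes are small. The highest class was kept for 6 of 10 genes with no doublet removal, at resolution 2 and with own markers. Of the 30 pairs of similar pattern, 11 were kept with no doublet removal, at 10%, without Harmony and at resolution 0.5, 18 at resolution 2, 15 with Leiden seed 2, 10 with list genes, 17 with at least 2000 UMIs and 5 with own markers. Tnfaip3 in pericytes turned to -0.50 at resolution 2, Nfkb2 in erythroid cells to -1.42 with thinning and Relb in erythroid cells to -0.38 as mean CPM. Tnf in neutrophils stayed past 1.5-fold in 15 of 16 alternatives, and was -0.07 with own markers. Except where the name of the alternative or the lack of a pericyte class gives it, the cause was not tested. Of the values of single genes, 1217 stayed inside the counting interval of the main value and 213 left it. A further 3 left it and changed sign, counted only for ratios past 1.5-fold in the main processing. Sign changes of smaller ratios are not in that count of 3. For example, Nfkb2 in macrophages and monocytes kept its sign in 10 of 16 alternatives, and Nfkb1 in osteoblasts in 12 of 16, from -1.03 to 0.56. No replicate could be left out, since each condition has 1 library. No paired analysis was possible because each condition has 1 library. Depth limits most the small classes, whose intervals are the widest.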
